A study of Mus musculus with 6 samples.

Results

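Start sites were described in 2270 loci that each had at least 5 of them. They were found by pooling the event lists of all 6 tumours, keeping each start event once and counting the distinct starts of every assembled locus, and they made up 15.5% of the 14667 loci with a start. Their 15141 starts were 39.1% of all 38744. The tumours were subcutaneous xenografts of A375 cells, a human melanoma line in long use, in BALB/c nude mice. The ZLD1039 group had received 100 mg/kg by oral gavage once a day for 27 days. The vehicle group had received the carrier on the same schedule. ZLD1039 inhibits EZH2, the catalytic subunit of Polycomb repressive complex 2, which methylates histone H3 and helps to keep genes silent. Each group held 5 mice, treated from a tumour volume of about 100 mm3, and 3 tumours of each group were sequenced. All tumours came from 1 cell line with a wild-type genotype label, and nude mice lack a normal T cell compartment, which limits what the model shows of treatment in an intact host.

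Many human genes can be transcribed from more than 1 promoter. Alternative promoters change the 5′ untranslated part of the transcript and can remove the beginning of the protein, and a gene's promoters can be active in different tissues or states. Polycomb complexes act largely at promoters with a high density of CpG, so the choice of start is a level at which an EZH2 inhibitor can be examined. In the deposited lists a start event is a first exon, recorded with the outer and inner ends of that exon. Starts of a locus were always distinguished by the inner end of the first exon, and 3969 of the 38744 shared their 5′ position with another start of the locus. These starts are therefore first exons of transcript models, read from fragments along the whole transcript and not from captured 5′ ends. Whether an assembled locus holds 1 gene or several neighbouring genes was not checked. Its starts need not be alternative promoters of the gene whose identifier it carries.

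Abundance was given by the authors in FPKM, an abundance scaled for transcript length and sequencing depth, and an event that a tumour's list did not hold was set to 0. The number of fragments is not in the lists, so depth is unknown and no counting interval can be given. The positions are human although the labels name a mouse build. The lists pair positions with Ensembl identifiers and locus identifiers but with no gene symbols, so each locus is named by its identifier or its position. For the same reason lineage or other cell type markers, and lists of genes known for alternative promoters, could not be looked up. In bulk tumours fewer cells of a type and less RNA per cell cannot be told apart.

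The loci held 6 starts at the median and 20 at most, 848 of them exactly 5 and 218 at least 10. Just outside the limit were 1331 loci with 4 starts. The leading start, the one with the highest FPKM, took 76.3% of the summed start FPKM in loci with 5 starts that were above 0 in all tumours, and 81.4% in those with 4. Median abundance was 9.71 FPKM with 5 starts and 8.50 FPKM with 4, so the limit cuts a gradual change and not a gap.

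**Figure D1:**
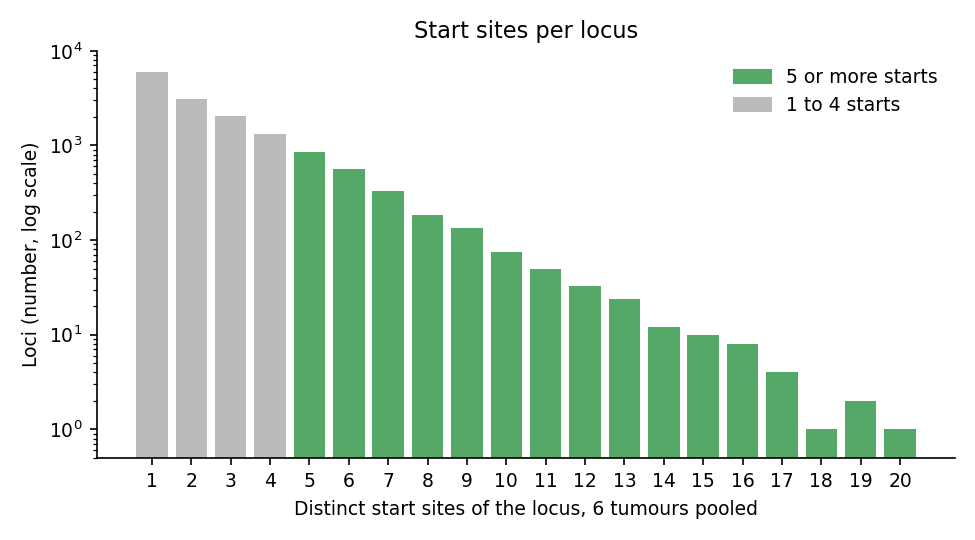
Number of loci (log scale) by the number of distinct start sites over the 6 tumours. Counts fall from 1 start to 17, with 1 or 2 loci each at 18, 19 and 20, and with 848 loci at 5 starts and 1331 at 4.

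The loci with at least 5 starts were longer and more abundant than those with 2 to 4. Their median span was 42575.5 bases against 27445.5, and their median summed start FPKM was 11.7 against 5.74. They also held more of the other event types, with 8 exon skipping events at the median against 3, and 49.6% had an intron retention event against 23.7%. In all 6 tumours 97.9% of them were above 0, against 82.2%. Only 15 (0.66%) carried no Ensembl identifier, against 5.00% of all loci with a start. More abundant loci leave more fragments from which transcript models can be built, and the part of abundance in the number of starts was not tested.

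Loci with many starts were unevenly spread over strands and chromosomes. On the plus strand 1493 of 8410 loci (17.8%) had at least 5 starts, and on the minus strand 777 of 6257 (12.4%). Mean starts per locus were 2.80 on the plus strand and 2.43 on the minus strand, while transcript ends ran the other way, with 1.23 and 1.66 per locus with an end. The plus strand thus had the higher mean for starts and the minus strand for ends. Starts lay upstream of ends by strand in 93.2% of plus strand loci and 96.2% of minus strand loci with both, so the strand column itself was read in the right direction. Among chromosomes with at least 100 loci the share ran between 7.47% on chromosome 13 and 23.2% on chromosome 16, with chromosome 11 at 22.6%.

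Neighbouring starts of these loci lay a median of 2145 bases apart, with quartiles of 404 and 9598.5 bases over 12871 gaps. Within 100 bases of the next start fell 14.8% of the gaps, and 8.27% were first exons that began at the same base. First exons had a median length of 240 bases, with quartiles of 116 and 457.

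A large part of the starts was scarce or listed in some tumours only. ZLD1039 tumours 1, 2 and 3 listed 11332, 10791 and 11457 of the 15141 starts. Vehicle tumours 1, 2 and 3 listed 11591, 11274 and 11234. ZLD1039 tumour 2 listed the fewest and vehicle tumour 1 the most, and the groups overlapped. In all 6 tumours 8412 starts (55.6%) were listed, and 2411 (15.9%) in 1 tumour only. Within a single tumour 51.8% to 58.0% of the loci still showed at least 5 starts. A mean share under 1% of the locus was seen for 4543 starts (30.0%), and 5087 (33.6%) reached 10%. At that level 548 loci had 1 start, 907 had 2, 586 had 3, 182 had 4 and 47 had 5 or more. If only starts averaging at least 1 FPKM were counted, 155 loci had at least 5 of them.

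One start carried most of the transcripts in a typical locus. Averaged over the 2223 loci above 0 in all tumours, the leading start took 71.1%, 72.8% and 70.6% of the start FPKM in ZLD1039 tumours 1 to 3, and 70.1%, 71.4% and 72.3% in vehicle tumours 1 to 3. Group means were 71.5% ± 1.1 with ZLD1039 and 71.3% ± 1.1 with vehicle (SD, n = 3 each), a difference well within the spread. The leading start exceeded 90% in 24.4% ± 2.15 of the loci with ZLD1039 and 24.1% ± 2.11 with vehicle, and stayed under 50% in 16.5% ± 2.21 and 16.8% ± 1.39. In loci with 2 to 4 starts the leading start took 88.3% ± 0.441 with ZLD1039 and 88.0% ± 0.328 with vehicle.

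Entropy measures how evenly a locus uses its starts, and is 0 bits when 1 start takes everything. Its mean was 1.06, 0.995 and 1.07 bits in the ZLD1039 tumours and 1.09, 1.05 and 1.02 bits in the vehicle tumours. The tumour that listed the fewest starts had the lowest entropy and the one that listed the most had the highest. Group means were 1.04 ± 0.0398 bits with ZLD1039 and 1.05 ± 0.0391 bits with vehicle (SD, n = 3 each). Expressed as a number of equally used starts, this was 2.24 ± 0.0619 with ZLD1039 and 2.26 ± 0.0618 with vehicle. Loci with 2 to 4 starts stood at 0.408 ± 0.0172 bits with ZLD1039 and 0.417 ± 0.0112 bits with vehicle.

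**Figure D2:**
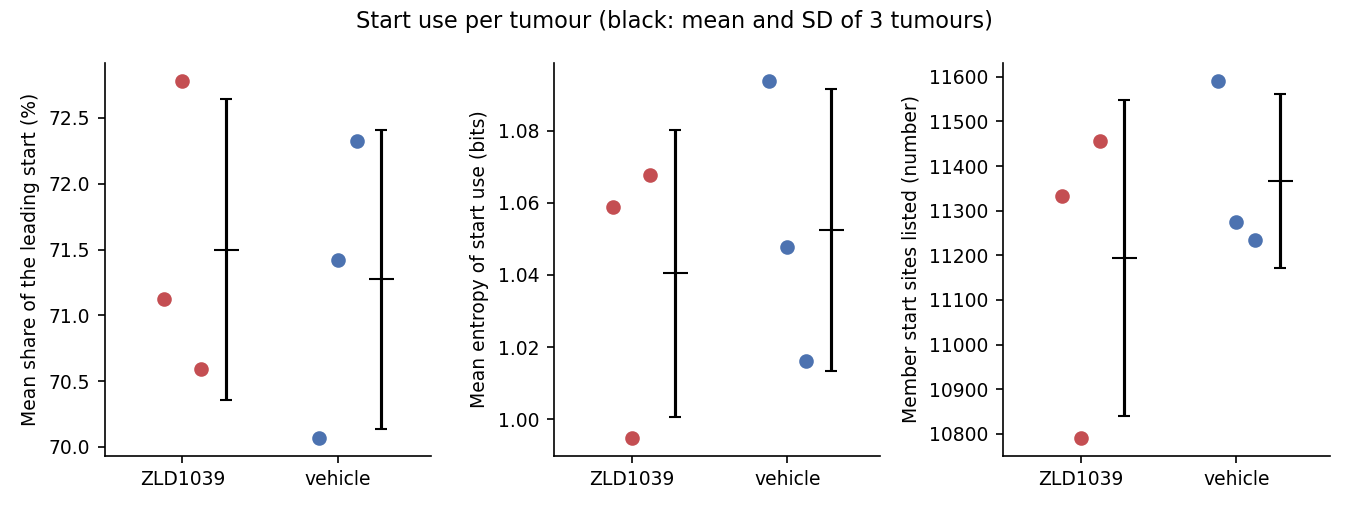
Mean share of the leading start (%), mean entropy of start use (bits) and number of starts listed in each tumour, with the mean and SD of 3 tumours per group in black. ZLD1039 tumours span 0.995 to 1.07 bits and vehicle tumours 1.02 to 1.09 bits, so the groups overlap in all 3 panels, whose axes do not begin at 0.

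Use was spread more widely the more starts a locus had. Over both groups the leading share was 92.9% in loci with 2 starts, 76.3% with 5, 69.0% with 7 and 57.8% with 10 or more. Entropy was 0.243, 0.835, 1.13 and 1.64 bits in the same classes. Part of this is arithmetic, since the maximum rises with the number of starts. Relative to that maximum entropy was 0.243 with 2 starts, 0.360 with 5 and 0.463 with 10 or more, and median abundance was 7.16, 9.71 and 22.2 FPKM.

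The leading start was most often the one furthest upstream. By tumour, the first start led in 44.5% to 49.7% of the 2223 loci, the second position in 18.2% to 19.6% and the last in 5.44% to 7.69%. Group means for the first start were 47.4% ± 2.62 with ZLD1039 and 48.8% ± 1.11 with vehicle (SD, n = 3 each). The first start, with all first exons that began at its position, held 40.8% to 44.6% of the locus on average. Even use of all distinct positions would give 17.7%. It led in all 6 tumours in 654 loci (29.4%), in some tumours in 825 (37.1%) and in none in 744 (33.5%). Where another start led, it lay a median of 9924 to 12742 bases downstream of the first, by tumour.

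This preference for the first start was larger on the plus strand. The first start led in 50.9% ± 3.04 of 1471 plus strand loci with ZLD1039 and 52.3% ± 1.02 with vehicle. On the minus strand it led in 40.6% ± 1.88 of 752 loci with ZLD1039 and 41.8% ± 1.41 with vehicle (SD, n = 3 each). The strands did not overlap in any tumour, with a lowest value of 47.7% on the plus strand and a highest of 43.1% on the minus strand. Loci with 2 to 4 starts showed the same order, with 73.1% to 75.6% on the plus strand and 65.4% to 67.6% on the minus strand.

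**Figure D3:**
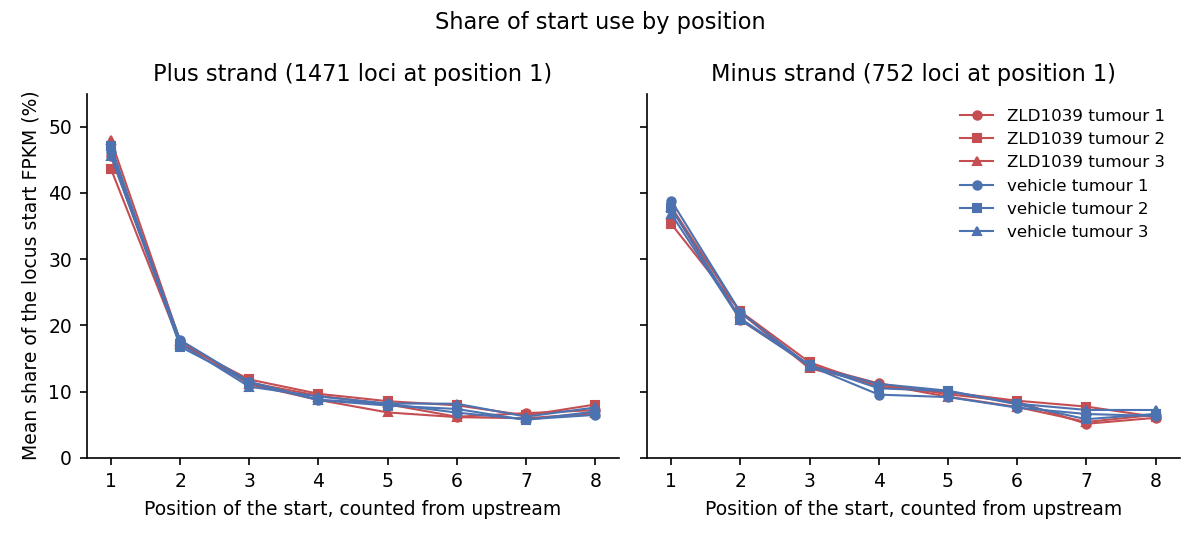
Mean share of the locus start FPKM (%) at each position counted from upstream, for plus strand and minus strand loci, 1 line per tumour. The first position holds 43.6% to 48.0% on the plus strand and 35.3% to 38.8% on the minus strand, and the 2 groups overlap at every position shown.

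Of the 10 loci with the most starts, with ties at 16 starts broken by abundance, 2 were led by their first position on average. ENSG00000140983 (chr16:699311-723130, plus strand) had 20 starts, and in all tumours its leader was a first exon at chr16:722668-722825, the 18th of 19 distinct positions. That start reached 36.8, 46.0 and 27.4 FPKM with ZLD1039 and 39.7, 37.1 and 12.7 FPKM with vehicle. It took 67.5%, 68.2% and 50.04% of the locus with ZLD1039 and 61.7%, 60.4% and 37.5% with vehicle. Vehicle tumour 3 was the lowest on both scales, and the groups overlapped.

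ENSG00000253159 (chr5:140718539-140892546, plus strand) had 19 starts over 174008 bases. Its leader at chr5:140855580-140858113, the 15th of 18 positions, was the same in all tumours and took 59.0%, 52.4% and 60.5% with ZLD1039 against 48.8%, 59.95% and 42.8% with vehicle. A second first exon began at the same base and ended at 140855713, and took 6.99% to 23.5% over all tumours. ENSG00000032444 (chr19:7587512-7625650, plus strand), also with 19 starts, had 4 different leaders. The first position took 25.2%, 48.2% and 21.8% with ZLD1039 and 32.0%, 29.6% and 51.7% with vehicle. A start at chr19:7598890-7599125 took 61.3%, 42.9% and 0.564% with ZLD1039 and 0.239%, 20.97% and 2.10% with vehicle. The tumours of 1 group differed from each other here as much as those of different groups.

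Of the next 7 loci by number of starts, with 16 to 18 each, 2 kept 1 leader in all tumours. These were ENSG00000129559 (chr14:24649426-24701660, minus strand), led by its first position at 50.3% to 59.6%, and ENSG00000239857 (chr7:856252-936072, plus strand), led by the 6th of 16 positions at 50.5% to 59.6%. ENSG00000159842 (chr17:910405-1090616, minus strand) was led by the 15th of 17 positions in every tumour but vehicle tumour 1, where the first position took 79.8%.

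**Figure D4:**
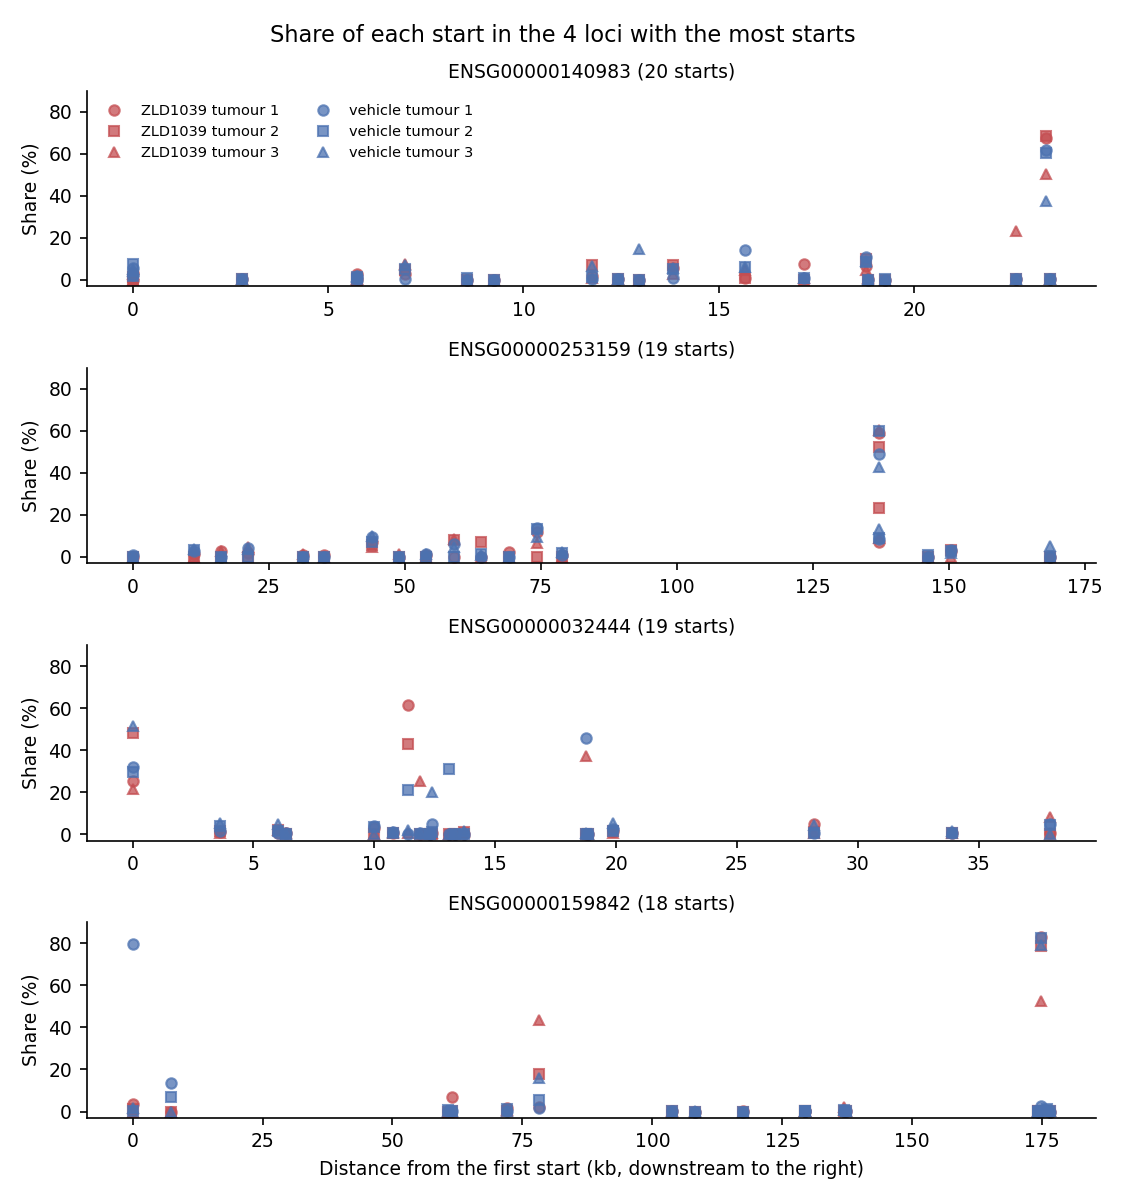
Share (%) of every start in the 4 loci with the most starts, against its distance from the first start in kb along the direction of transcription, ZLD1039 tumours in red and vehicle tumours in blue. In the upper 2 panels all tumours share 1 leader far downstream, while in the lower 2 the leader differs between tumours of the same group.

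Over all these loci the leading share was 75.03% at 50 FPKM or more and 70.0% below 5 FPKM. Of the 5 most abundant loci, 4 drew at least 90.1% from 1 start in every tumour. ENSG00000181163 (chr5:170814652-170834778, plus strand) had the lowest entropy among loci averaging at least 10 FPKM. Its first start stood at 604, 765 and 564 FPKM with ZLD1039 and at 597, 516 and 505 FPKM with vehicle, 99.8% or more of the locus in every tumour. ENSG00000207421 (chr1:45240923-45244451, plus strand) drew at least 99.6% from a first exon of 164 bases at its second position. ENSG00000202363 (chr3:39448180-39454033), ENSG00000133112 (chr13:45911008-45915505) and ENSG00000200259 (chr19:49956426-49994682), at 807 to 1335 FPKM, each kept 1 leader in all tumours, with 90.1% to 99.6% of the locus.

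The most abundant locus, ENSG00000026025 (chr10:17270258-17279584, plus strand), showed how complete an exchange of leaders could be. A first exon at chr10:17271277-17271984 reached 1875, 1941 and 1319 FPKM in ZLD1039 tumours 1 to 3, and 0, 1841 and 1990 FPKM in vehicle tumours 1 to 3. In vehicle tumour 1 a first exon at chr10:17270258-17270523 stood at 1398 FPKM, and it was listed in no other tumour. Both held over 99% of the locus where they were listed, although the summed starts of vehicle tumour 1 lay between those of ZLD1039 tumours 3 and 1. In ENSG00000109971 (chr11:122928205-122933938, minus strand), the second most abundant, the leader took 98.3% in vehicle tumour 2 and 51.3% to 60.5% in the other tumours.

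Such exchanges were frequent. Of the 2223 loci, 553 (24.9%) had a start with over 50% of the locus in at least 1 tumour that was not listed in at least 1 other. Within the ZLD1039 group alone this held for 324 loci (14.6%), and within the vehicle group alone for 306 (13.8%). Of loci with 2 to 4 starts it held for 19.98% over all tumours. Of the 4050 starts that led in any tumour, 1114 (27.5%) were not listed in another. A value of 0 for a start therefore cannot be read as a silent promoter.

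At the other end, ENSG00000273266 (chr12:54378849-54449814, plus strand) had the highest entropy, 3.16, 3.13 and 3.19 bits with ZLD1039 and 3.03, 3.04 and 3.09 bits with vehicle. The groups did not overlap in this locus, as in 10.0% of tested loci with at least 5 starts and 8.77% of all tested loci. No locus passed the test of entropy given below. Of the 16 starts of ENSG00000273266, 5 averaged at least 10% of the locus and the leader took 15.9% to 25.9%. The locus spans 70966 bases, and whether these starts belong to a single gene was not checked. The last start of the locus, at chr12:54443781-54448145, stood at 1.19, 9.27 and 3.21 FPKM with ZLD1039 and at 9.94, 11.5 and 13.1 FPKM with vehicle. ENSG00000152439 (chr19:57874845-58029772, plus strand) followed at 2.81 to 3.01 bits and ENSG00000092931 (chr17:74722912-74769433, plus strand) at 2.32 to 3.16 bits. In the first of these the first start was steady at 23.3%, 24.2% and 28.1% with ZLD1039 and 23.8%, 29.1% and 27.5% with vehicle.

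The identity of the leading start varied between tumours, within groups and between them. The same start led in all 6 tumours in 989 of 2223 loci (44.5%), against 68.4% of loci with 2 to 4 starts. The other loci had 2 leaders (783), 3 (331), 4 (100), 5 (18) or 6 (2). Where more than 1 start led, the outermost leaders lay a median of 12617 bases apart, and 104 of 1234 such loci (8.43%) had all leaders within 100 bases. Most of these loci thus had leaders that were well separated first exons.

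Between any pair of tumours the mean share of the locus that sat on different starts was 27.1% to 29.8% within ZLD1039, 26.7% to 30.3% between the groups and 27.4% to 28.6% within vehicle. The same start led in 68.1% to 70.5% of loci within ZLD1039, in 68.5% to 72.3% between groups and in 70.1% to 71.3% within vehicle. These ranges overlap. The variation was larger in scarce loci. Below 5 FPKM the share on different starts was 44.2% and 21.7% of loci kept their leader in all tumours, while at 50 FPKM or more the values were 19.4% and 57.4%.

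ZLD1039 and vehicle tumours were then compared start by start, with limma fitted to all loci with at least 2 starts, or to all events, and Benjamini-Hochberg adjustment over the whole table. No start passed the test of its share. Of 21321 tested starts 0 passed (a background of 0%), and so did 0 of the 10130 that belonged to loci with at least 5 starts, with a smallest adjusted p of 0.34 (limma). Without adjustment 245 of these (2.42%) had p under 0.05, against 2.49% of all tested starts. The groups did not overlap in 827 (8.16%), against 8.04% of all tested starts, so loci with many starts did not stand out. The 95% interval of a difference, not adjusted for the number of starts tested, reached 15.6 percentage points to either side at the median. An estimated difference of at least 20 points was seen for 1014 of the 10130 starts, against 2588 of all 21321. With 3 tumours a group 0 of these passed after adjustment.

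**Figure D5:**
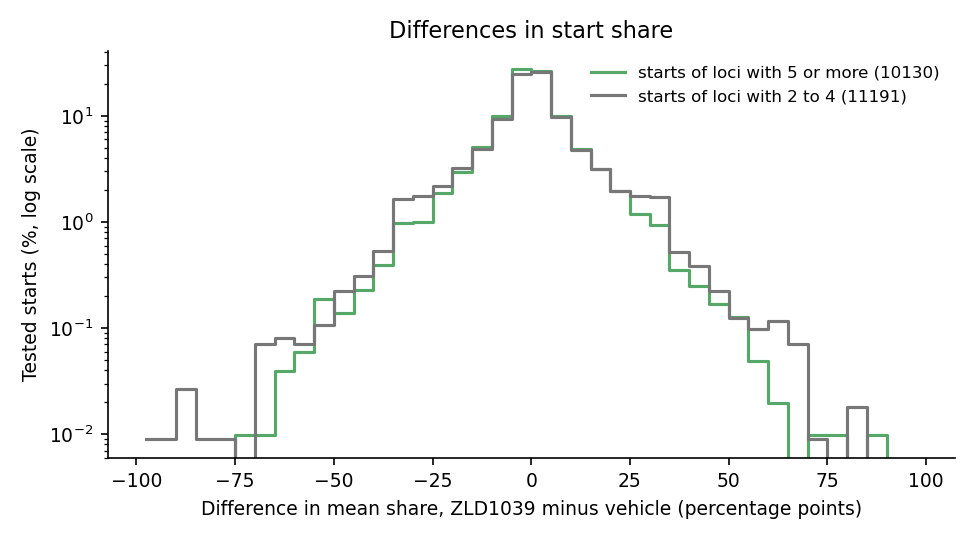
Distribution of the difference in mean start share, ZLD1039 minus vehicle (percentage points), over 10130 tested starts of loci with 5 or more starts and 11191 of loci with 2 to 4, on a log scale. Both distributions centre on 0 and are nearly symmetric, and 0 starts passed the adjusted threshold.

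The 5 largest positive and the 5 largest negative differences in share, among starts whose groups did not overlap, all missed the threshold. A first exon of 54 bases in ENSG00000139718 (chr12:122242086-122242139) took 100%, 100% and 65.8% of its locus with ZLD1039 and was listed in no vehicle tumour (difference 88.6 points, SE 13.7, limma adjusted p = 0.764). It stood at only 1.75, 2.47 and 2.74 FPKM with ZLD1039. In ENSG00000167965 (chr16:2255178-2258614, plus strand), the start at chr16:2255451-2255876 took 88.5%, 68.4% and 90.4% with ZLD1039, against 35.0%, 0.129% and 0.00695% with vehicle. The start at chr16:2255178-2255513 took 11.4%, 31.0% and 9.35% with ZLD1039, against 64.6%, 98.96% and 79.8% with vehicle. Both starts were picked among those without overlap, and their 5′ positions are close together. The adjusted p was 0.764 for both (limma).

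The largest negative difference was at chr2:25564695-25564754, a first exon that took 43.3%, 0% and 3.45% with ZLD1039 and 73.5%, 94.6% and 92.0% with vehicle, in a locus of 1.20 to 2.37 FPKM. A first exon at chr1:155646339-155646462 took 0%, 0% and 0% with ZLD1039 and 7.57%, 90.4% and 87.8% with vehicle. One at chr5:154238185-154238328 took 5.44%, 4.73% and 6.15% with ZLD1039 and 66.4%, 27.2% and 92.5% with vehicle. One at chr15:42783178-42783321 took 2.08%, 0% and 0.263% with ZLD1039 and 42.8%, 27.2% and 99.3% with vehicle. The vehicle tumours spread widely in these last 3. A share of a scarce locus moved on very little RNA. A first exon at chr9:42711081-42712618 took 97.9%, 91.7% and 100% with ZLD1039 and 21.3%, 19.7% and 20.4% with vehicle, in a locus of 0.203 to 1.65 FPKM. A first exon at chr9:96862369-96864033 took 17.6%, 100% and 100% with ZLD1039 and 8.40%, 11.1% and 10.0% with vehicle, although its own level was 0.178 to 0.563 FPKM in all tumours. A first exon of 20 bases at chr14:104181761-104181780 took 59.3%, 54.9% and 66.7% with ZLD1039 and 0%, 0.68% and 2.29% with vehicle. This start and the one at chr9:42711081-42712618 passed when the mean-variance trend was dropped (limma, adjusted p = 0.0295 and 0.00591). Neither passed in the fit used here (limma, adjusted p = 0.764 and 0.34). The chr14 start is the first of its locus, and in the test of first starts given below its adjusted p was 0.071 (limma). Its locus is also among those whose leader differed between the groups.

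In 15 of the 2223 loci (0.675%) 1 start led in all ZLD1039 tumours and another in all vehicle tumours, against 0.45% of the 7548 loci with at least 2 starts. The leader lay further upstream with ZLD1039 in 5 of the 15 and further downstream in 7, and in the other 3 both leaders began at the same base. Between the 2 leaders lay a median of 4138 bases. At chr4:48833015-48863266, the most abundant, a first exon at 48833101-48833513 stood at 38.8, 61.0 and 6.74 FPKM with ZLD1039 and at 17.9, 9.16 and 8.41 FPKM with vehicle. Another at 48833076-48833266 stood at 29.6, 36.0 and 6.65 FPKM with ZLD1039 and at 58.2, 69.6 and 72.4 FPKM with vehicle. The margin between the 2 was narrow in ZLD1039 tumour 3, at 49.9% and 49.2% of the locus.

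At chr11:118478330-118528741 the first position took 62.9%, 69.2% and 51.0% with ZLD1039 and 31.3%, 22.8% and 27.3% with vehicle. A start at chr11:118502633-118502770 took 6.36%, 15.8% and 9.11% with ZLD1039 and 59.0%, 67.7% and 67.9% with vehicle. At chr15:90378656-90456188, on the minus strand, the first position took 45.6%, 31.6% and 37.0% with ZLD1039 and 71.8%, 64.2% and 69.7% with vehicle. The 4th position there took 53.5%, 68.1% and 62.2% with ZLD1039 and 27.7%, 31.0% and 26.8% with vehicle. These loci were picked for their exchange of leader, which favours shares without overlap, so the separation of these 4 starts is no added support. In the test of shares 0 starts passed. The other named exchanges of leader were at chr11:75273101-75283181, chr11:124491817-124505287, chr15:75715309-75748183 and chr10:37440988-37604245.

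In abundance, 3 of 5778 tested starts of these loci fell with ZLD1039 and 0 rose (limma on log2(FPKM + 1), adjusted over all 82894 tested events). Over all 16267 tested starts 5 fell (0.0307%) and 1 rose (0.00615%), and over all events 8 fell (0.00965%) and 22 rose (0.0265%), so the 3 of 5778 are a share of the same low order. The difference between these shares was not tested. Unadjusted p was under 0.05 for 335 of the 5778 starts (5.80%), against 4.51% of all 16267 (limma). All 3 were first exons on the minus strand that no ZLD1039 tumour listed, so no fold is given. They passed the filter on low values, a mean of at least 1 FPKM in a group, through the vehicle group alone, and with no filter 0 starts of these loci passed (limma, smallest adjusted p 0.126). With leading starts often unlisted in single tumours, as above, the 3 are a description of what was listed.

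The first was the furthest upstream start of ENSG00000171680, at chr1:6579505-6580121, 1 of 13 in its locus. It stood at 19.1, 24.1 and 13.4 FPKM in the vehicle tumours (limma, adjusted p = 0.0219). The locus as a whole stood at 53.7, 53.0 and 83.5 FPKM with ZLD1039 and at 71.5, 114 and 78.2 FPKM with vehicle, and did not pass (limma, adjusted p = 0.9). The start whose share moved most the other way lay 23365 bases downstream, at 1.97, 10.8 and 27.4 FPKM with ZLD1039 and 0.000472, 0.333 and 0.26 FPKM with vehicle. The locus itself was thus listed in all ZLD1039 tumours.

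The second was a first exon of 47 bases in ENSG00000040633, at chr17:7141531-7141577, with 12.4, 22.5 and 22.9 FPKM in the vehicle tumours (limma, adjusted p = 0.0219). Its locus stood at 49.5, 36.1 and 32.0 FPKM with ZLD1039 and at 44.4, 52.1 and 56.3 FPKM with vehicle. The third, at chr19:49954625-49954858, had 10.0, 9.14 and 13.1 FPKM in the vehicle tumours (limma, adjusted p = 0.0242). A transcript end of the same locus, at chr19:49950471-49950724, was also listed in no ZLD1039 tumour and stood at 25.9, 24.98 and 31.9 FPKM with vehicle (limma, adjusted p = 0.00838). In both of these loci ZLD1039 tumour 3 listed a first exon that no other tumour had, at 21.98 FPKM and at 22.2 FPKM, or 68.7% and 74.1% of its locus.

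With any 1 tumour left out, and so fewer samples, the differences on the log2(FPKM + 1) scale stayed at -4.49 to -4.09 for the start on chromosome 1, -4.57 to -4.15 for that on chromosome 17 and -3.64 to -3.40 for that on chromosome 19. The adjusted p was 0.0512 to 0.0901 for the first, 0.0275 to 0.102 for the second and 0.0602 to 0.125 for the third (limma). The chromosome 17 start kept its call without vehicle tumour 1, and no other such fit kept a call of these 3. By listing alone, 49 starts (0.324%) were present in all ZLD1039 tumours and in no vehicle tumour, and 51 (0.337%) in all vehicle tumours and in no ZLD1039 tumour, against 0.294% and 0.377% of all starts. Of these, 11 and 19 reached 1 FPKM.

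No locus with at least 5 starts passed the remaining tests. Summed start abundance passed in 0 of 10349 loci (0%), 2233 of them with at least 5 starts, where the smallest adjusted p was 0.235 (limma). Among the 2233, 111 (4.97%) had an unadjusted p under 0.05, against 4.62% of all 10349. Entropy passed in 0 of 7220 loci (0%), 2187 of them with at least 5 starts, with a smallest adjusted p of 0.756 (limma). Unadjusted p was under 0.05 in 133 of the 2187 (6.08%), against 3.96% of all 7220. The share of the first start passed in 1 of 7220 loci (0.0139%) and in 0 of the 2187, with a smallest adjusted p of 0.071 (limma). Without adjustment 76 of the 2187 (3.48%) had p under 0.05, against 3.48% of all 7220. Median differences over the loci with at least 5 starts, ZLD1039 minus vehicle, were -0.0061 bits in entropy and -0.076 points in the share of the first start, against -0.0041 bits and 0 points over all loci tested. The median 95% interval reached 0.553 bits and 20.8 points to either side, so moderate shifts in single loci were below what 3 tumours a group can resolve.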

How the data were processed

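RNA of 6 A375 tumours, 3 given ZLD1039 and 3 given vehicle, had been purified on mRNA beads and made into SMARTer libraries, per the labels' protocols. Per the file headers, the deposited lists hold 1 row per transcript event and tumour, with an FPKM from the authors. Tools in the submitters' processing notes are bcl2fastq (2.17.1.14) and HTSeq (0.6.1), and the build there is mm10. The program that listed the events is not given in the sources used here. Positions include chromosomes 20, 21 and 22 and run past the last mm10 genes, so they were taken as human and given as deposited. No human genome was used here and no sequence is shown.

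Start events were pooled by identifier over the tumours, and no identifier had more than 1 position. Shares were the FPKM of a start over the summed start FPKM of its locus, and entropy was taken over these shares. Positions were counted from the lowest coordinate on the plus strand and the highest on the minus strand. Tests used limma 3.58.1 in R 4.3.3 with its trend option, and p-values were adjusted after Benjamini and Hochberg, with a threshold of 0.05. Shares, entropy and first starts were tested in loci averaging at least 1 FPKM and above 0 in all tumours, shares only between a mean of 1% and 99%. Abundances were tested as log2(FPKM + 1) where a group averaged at least 1 FPKM. Groups came from the sample titles, and since separate mice are not stated outright, p-values reflect only how far these tumours differ. Loci and starts were named by rank in number of starts, abundance, entropy and share difference, by passing a test, or by an exchange of leader. The 2270 loci, the rules and the lists were chosen with earlier results of these data known. Lists of alternative promoter genes, Polycomb genes and cell type markers could not be applied without symbols. Values over the chosen loci carry no p.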

Additional observations from a re-analysis of the deposited data

How the results depend on the processing

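No sequence depth is known, and 3 tumours a group leave wide intervals. Calls of single starts depended on most choices. Among loci with at least 5 starts, 3 starts passed in abundance, all lower. With the replicate number as a block (replicate block; smallest adjusted p 0.403, limma) 0 passed, with no mean-variance trend 6 (5 lower, 1 higher), at a threshold of 0.10 7 (4 lower, 3 higher), with no filter on low values 0, with a pseudocount of 0.1 2, both lower, and with 1 tumour left out 0 to 5, the 5 being 3 lower and 2 higher. Over all starts the 6 calls became 0 with the block, 14 with no trend, 12 at 0.10, 2 with a pseudocount of 0.1, 0 with no filter and 0 to 8 with 1 tumour left out. Over all events the 30 calls became 0 with the block, 60 with no trend, 55 at 0.10, 3 with no filter and 0 to 27 with 1 tumour left out. Same-numbered tumours did not deviate together (correlations -0.055 to -0.007 for events and -0.068 to -0.016 for shares). Different-numbered tumours gave -0.033 to 0.061 for events and -0.020 to 0.051 for shares. Values this close to 0 cannot show whether the numbers pair the tumours, and the main fits used no block.

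Share calls stayed at 0 in these loci except for 4 with no trend (11 over all starts, and 1 there on a log2 ratio scale). Summed abundance gave 0 in these loci throughout, and over all loci 2 with no trend, 1 at 0.10 and 0 to 2 with 1 tumour left out. Entropy gave 0 except 1 over all loci when divided by its maximum. The share of the first start gave 2 with no trend and 3 at 0.10 in these loci. Over all loci its 1 call became 0 with the block, 5 with no trend, 7 at 0.10, 2 at a minimum of 10 FPKM and 0 to 5 with 1 tumour left out. The causes were not tested.

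Between the groups, the difference in leading share was 0.225 points and ran between -0.525 and 0.784 with 1 tumour left out. It was 1.69 points if only starts averaging at least 1 FPKM were counted, over 154 loci and with a pooled SD between tumours of 1.94 points. The difference in entropy, -0.0121 bits, ran between -0.0301 and 0.014, positive without ZLD1039 tumour 2 and without vehicle tumour 1. The difference in the percentage of loci led by the first start, -1.38 points, ran between -2.65 and 0.031. Exchanges of leader between the groups numbered 15, with 10 after starts within 100 bases were merged and 6 at a mean of at least 10 FPKM. With 1 tumour left out, an alternative chosen after seeing the data that asks for agreement of only 2 tumours in 1 group, they numbered 23 to 35. The number of loci was 3601 with at least 4 starts, 538 with at least 8, 1742 after merging and 155 with starts averaging at least 1 FPKM, and the mean leading share was 74.9%, 63.1%, 71.96% and 55.4%. In the same order the first start led in 52.7%, 36.2%, 48.0% and 33.8%, against 48.1% of the loci described above. How often the first start led thus depended on which starts were counted.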
